A study of Homo sapiens with 8 samples.

Results

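The genes described here are 40 genes of megakaryocytes and platelets, measured in HEL cells that had been given a JAK2 inhibitor, a telomerase inhibitor, both or neither. They were taken by name, and for each the probe set annotated to that gene alone with the highest mean over all arrays stood for the gene. Such a probe set was found for 39 of the 40, out of 17958 genes measured in this way. GP1BB was the exception, since its probe sets are shared with SEPTIN5. A further 3 genes (P2RY12, VWF and F13A1) lay under the filter on low signals, a mean of 4.37 on the log2 scale, which left 36 members among the 12570 genes tested.

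HEL is an established human erythroleukaemia line that carries an activated JAK2 kinase and expresses genes of the red cell and of the megakaryocyte together. Its cells were cultured for 48 h with the solvent DMSO (control), with 0.5 µM LY2784544, with 20 µM GRN163L, or with both agents (the combination, for which the labels do not restate the doses). LY2784544 is a small-molecule inhibitor of JAK2, and GRN163L is an oligonucleotide that binds the RNA template of telomerase. The 4 treatments were each made once in 2 separate experiments, so every group holds 2 arrays, and all come from 1 cell line. The p-values therefore measure the spread between these cultures only. Values are log2 signals of Affymetrix arrays, so a difference of 1 is a ratio of 2 in signal.

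Megakaryocytes are the bone marrow cells that shed platelets. They mature under thrombopoietin, whose receptor signals through JAK2, and load their cytoplasm with the receptors, granules and microtubules that platelets later use to stop bleeding. Platelets first catch on von Willebrand factor and collagen, are then activated through receptors for thrombin, nucleotides and thromboxane, and bind fibrinogen through an integrin while their granules empty. RNA was taken from whole cultures, so fewer cells of a type and less RNA per cell cannot be told apart.

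The lineage label was checked against 3 marker genes, of which 2 were above the filter level in every culture. ITGA2B, the alpha chain of the platelet fibrinogen receptor, read between 11.13 and 11.46, and MMRN1, which encodes the granule protein multimerin, between 8.17 and 9.61. CLEC1B, the receptor for podoplanin, read 4.15 and 4.23 in the control cultures, under the filter level. It entered the test only through the cultures with LY2784544, where it is high. Counts out of 35 leave it out. Counts and medians of 36 genes, and all other counts of called members, include it. In control cultures 35 of the 39 measured genes had a mean above the filter level, and the other 4 were CLEC1B, P2RY12, VWF and F13A1.

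The arrays also differed as a whole. Median signals of the tested genes were 7.48 and 7.46 in the control cultures of experiments 1 and 2, 7.33 and 7.405 under LY2784544, 7.46 and 7.51 under GRN163L, and 7.23 and 7.36 under the combination. Dim probe sets moved the other way. The median of 335 olfactory receptor genes, which stand here for signals near background, was 3.22 and 3.27 in control cultures, 3.47 and 3.40 under LY2784544, and 3.52 and 3.36 under the combination. Comparisons that use the same control cultures share them and are not independent of each other.

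A few platelet genes rose with the combination, and none was called with GRN163L alone. With the combination CD226, P2RX1 and MMRN1 rose, by 1.83- to 1.85-fold, and none of the other genes of the 35 was called at an adjusted p below 0.05 (0.756% of all genes tested rose and 2.71% fell). With LY2784544 alone 0 of the 35 were called by limma (0.39% of all genes rose and 0.883% fell). CLEC1B was called as higher in both comparisons. Its control signal was under the filter level, so its change is not read as a ratio of expression. The median change of the 36 genes was 0.1075 with LY2784544 and 0.1475 with the combination, against -0.04 and -0.065 over all genes tested. With LY2784544 the direction turned between the experiments, at -0.06 in experiment 1 and 0.19 in experiment 2, and the median ran from 0.0075 to 0.225 when 1 array was left out. With the combination it was 0.115 in experiment 1 and 0.275 in experiment 2. With GRN163L alone its median was -0.025, against 0.005 over all genes.

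Part of these values depends on how the arrays are scaled. Setting all arrays to the same median moved every change upward, by 0.1025 with LY2784544 and by 0.175 with the combination. The medians of the 36 genes were then 0.21 and 0.3225.

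In the 4 cultures with LY2784544 against the 4 without it, MMRN1 and CD226 rose (2 of the 35, while 0.923% of all genes rose and 3.53% fell), and CLEC1B was called as well. Every culture with LY2784544 was above every culture without it for 6 of the 35 genes: PEAR1, CD226, SELP, MMRN1, PTGS1 and TBXAS1. CLEC1B was ordered in the same way, as were 3.33% of all genes tested. None of the 36 was lower in every culture with LY2784544, compared with 8.66% of all genes. Among the 6, the difference ran from 0.3075 for SELP to 0.90 for MMRN1.

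No member was called with GRN163L alone by limma, which called 0 of 12570 genes there (0 members and 4.73% of genes at an unadjusted p under 0.05). None was called in the combination against LY2784544 alone (0.31% of genes called, with 7 members and 13.5% of genes unadjusted). In the combination against GRN163L alone MMRN1 rose, 1 of 36 (0.0716% of genes rose). The limma test for a departure from additive effects called 0 genes, and 4 members (GP1BA, ITGA2, MMRN1 and MYL9) and 3.69% of genes lay under an unadjusted p of 0.05. For GRN163L over the 4 cultures with it against the 4 without, no member was called (0.382% of genes called, with 8 members and 15% of genes unadjusted).

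Same-numbered cultures come from the same experiment and deviated together, so the model was also fitted with the experiment as a block. That fit called 8 members in the combination against control: ITGB3, TREML1 and THBS1 rose and SPARC fell besides CLEC1B, CD226, P2RX1 and MMRN1 (2.84% of all genes rose and 8.15% fell). With LY2784544 alone it called ITGA2 as lower besides CLEC1B (0.788% of genes rose and 1.96% fell). In the combination against LY2784544 it called ITGA2 and TREML1 as higher (0.565% of genes rose), and in the combination against GRN163L it added CLEC1B and THBS1 to MMRN1 (0.247% of genes rose). Over all cultures with LY2784544 it added P2RX1, THBS1, PTGS1 and TBXAS1 (2.63% of genes rose). With GRN163L alone it called none of the members (0% of genes), while 5 members and 8.18% of genes lay under an unadjusted p of 0.05.

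Leaving out 1 culture at a time ended many calls of the fit without the block, over all genes as well as in the set. For the combination against control 436 genes were called from all arrays. Without the control culture of experiment 1 or 2, or the combination culture of experiment 1, 92, 57 and 109 genes were called and 0 members among them. Without either GRN163L culture 143 genes were called, CLEC1B the only member, and without the combination culture of experiment 2 537 genes, with CLEC1B, P2RX1 and SPARC. For LY2784544 alone, with 160 genes called from all arrays, the call of CLEC1B was lost without any 1 of the control, LY2784544 and GRN163L cultures (limma adjusted p 0.0601 to 0.195, with 0 to 120 genes called) and held without either combination culture. The call of MMRN1 in the combination against GRN163L, among 68 genes, held only when an LY2784544 culture was left out, and 0 to 61 genes were called otherwise. Over all cultures with LY2784544, MMRN1 was called whichever culture was left out, and CD226 only without the control culture of experiment 1. CLEC1B was also called whichever culture was left out, but it passed the filter only through the cultures where it is high. Its calls in these fits, held or lost, are therefore no support for a rise.

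**Figure D1:**
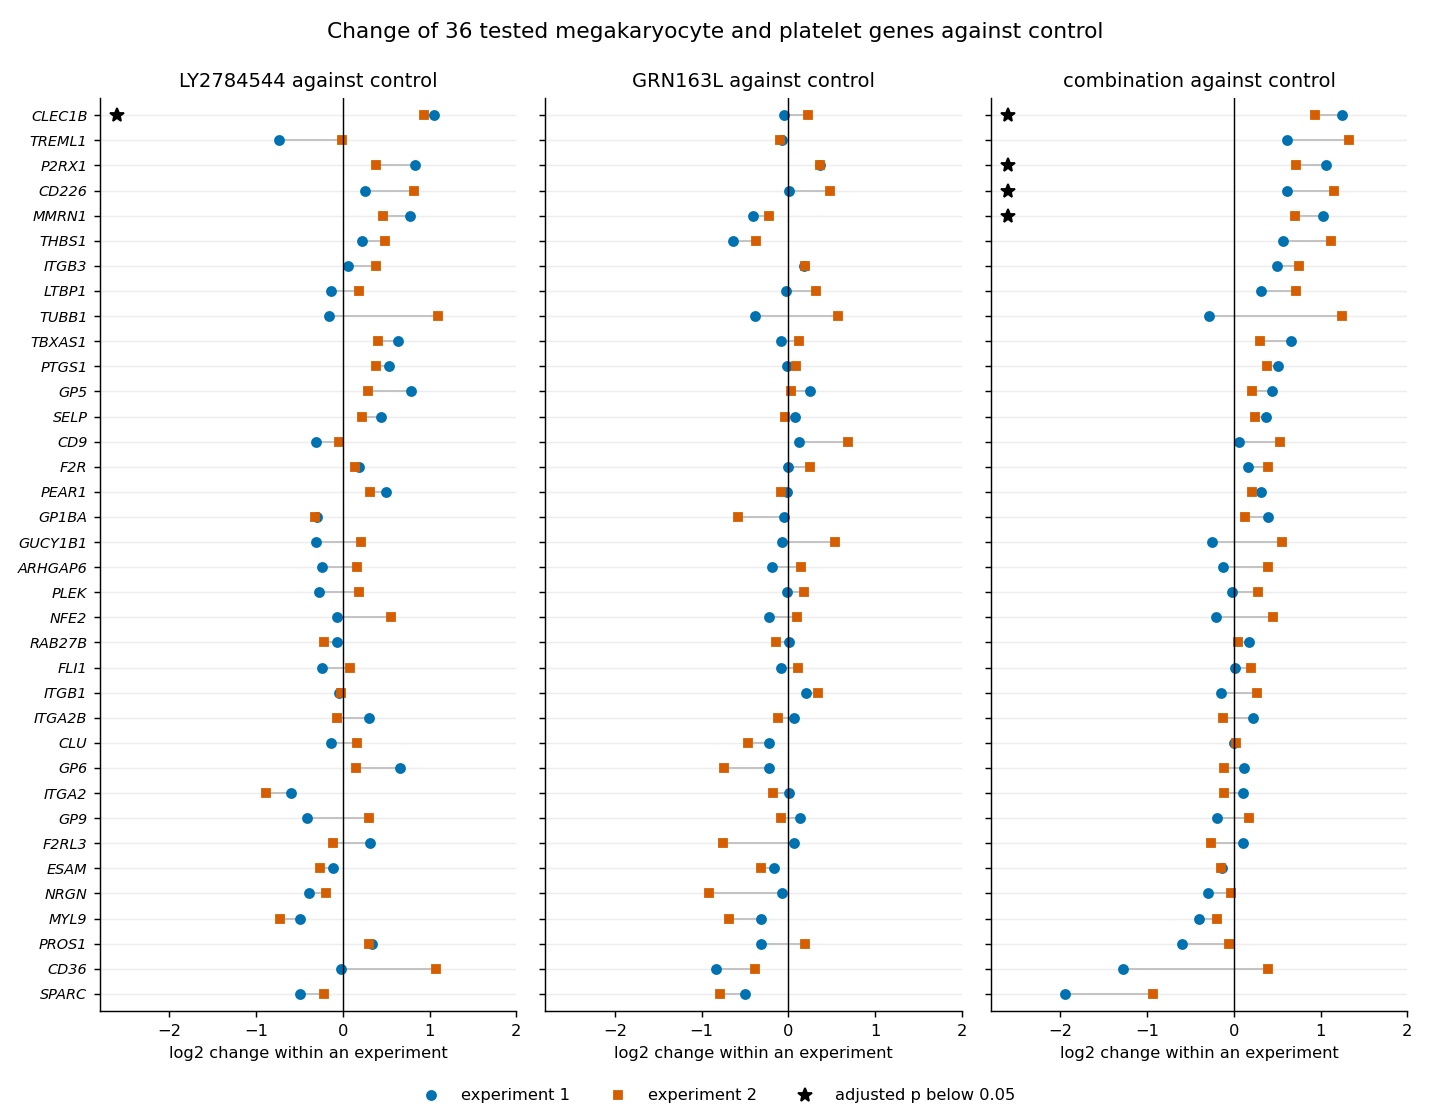
Log2 change of each of the 36 tested genes against the control culture of the same experiment, ordered by the change with the combination, for LY2784544, GRN163L and the combination. Circles are experiment 1 and squares experiment 2, and a star marks an adjusted p below 0.05 without the block: CLEC1B with LY2784544, and CLEC1B, CD226, P2RX1 and MMRN1 with the combination.

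The DNA upstream of CLEC1B, MMRN1 and CD226, called as higher over all cultures with LY2784544, is shown. Beside it is that of ITGA2B, a marker of the same lineage that was not called. Each window holds the 250 bases before a transcription start in RefSeq (GRCh38.p14), 5′ to 3′ in the sense of the gene, and such windows were at hand for 30 of the 40 genes. Capitals mark matches on either strand. The letters searched were AGATAA or TGATAA (which GATA factors bind), AGGAAG (an ETS factor core), TTCNNNGAA (the STAT palindrome) and TGAGTCA (bound by NF-E2). Other letters that these factors can bind were not searched. The windows are chr12:9999122-9999371 on the minus strand for CLEC1B, chr4:89894604-89894853 on the plus strand for MMRN1, chr18:69947874-69948123 on the minus strand for CD226 and chr17:44389650-44389899 on the minus strand for ITGA2B. MMRN1 and CD226 have 2 windows each, of which that with more matches is printed.
CLEC1B: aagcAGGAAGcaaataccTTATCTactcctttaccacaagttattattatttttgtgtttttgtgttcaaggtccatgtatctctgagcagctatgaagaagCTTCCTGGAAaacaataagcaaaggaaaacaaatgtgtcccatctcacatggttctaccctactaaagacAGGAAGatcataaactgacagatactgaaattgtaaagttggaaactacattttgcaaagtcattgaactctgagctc
MMRN1: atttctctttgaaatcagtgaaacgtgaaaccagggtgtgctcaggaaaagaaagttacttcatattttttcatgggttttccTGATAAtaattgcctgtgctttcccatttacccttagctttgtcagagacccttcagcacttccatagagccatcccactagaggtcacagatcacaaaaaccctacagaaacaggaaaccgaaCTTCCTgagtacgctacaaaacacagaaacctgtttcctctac
CD226: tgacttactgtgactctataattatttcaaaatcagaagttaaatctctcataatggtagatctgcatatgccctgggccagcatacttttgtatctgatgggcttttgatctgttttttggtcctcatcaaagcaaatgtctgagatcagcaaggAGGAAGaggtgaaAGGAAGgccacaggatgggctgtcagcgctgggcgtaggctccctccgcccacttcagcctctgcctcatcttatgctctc
ITGA2B: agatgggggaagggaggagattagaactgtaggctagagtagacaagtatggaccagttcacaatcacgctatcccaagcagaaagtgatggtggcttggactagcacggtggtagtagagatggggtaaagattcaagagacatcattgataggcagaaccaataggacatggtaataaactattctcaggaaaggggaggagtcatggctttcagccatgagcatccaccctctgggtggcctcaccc

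CLEC1B held a GATA match, 3 ETS matches and a STAT match, and the STAT match, at -147 to -139 from the start, overlapped an ETS match. In the printed windows MMRN1 held a GATA and an ETS match, and CD226 held 2 ETS matches. ITGA2B held none of the letters searched in its only window, which does not mean that it lacks sites of these factors, since other forms were not searched. The window of MMRN1 that is not printed held none of them either, and that of CD226 held a single ETS match. Over the 47 windows of the 30 genes, AGGAAG was found in 53.2%, against 28.7% of all 35116 windows of this length. It was held by 21 of the 30 genes, among them genes not called without the block, such as THBS1, GP6 and CD36. The printed windows therefore do not set called genes apart from the others. AGATAA or TGATAA was found in 21.3% against 14.6%, the STAT palindrome in 8.51% against 6.57%, and TGAGTCA in 4.26% against 4.2%. The 4 genes with a STAT match were CD36, CLEC1B, PROS1 and THBS1. Some genes have more than 1 window, and a match is a run of letters, not a measured site.

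Among 7 receptors outside the main adhesion complexes, CLEC1B and CD226 were called as higher. CLEC1B, through which platelets respond to podoplanin on lymphatic vessels, read 4.15 and 4.23 in the control cultures of experiments 1 and 2, 4.10 and 4.46 under GRN163L, 5.20 and 5.17 under LY2784544, and 5.40 and 5.17 under the combination. All 4 cultures with LY2784544 were above all 4 without it. CLEC1B passed the filter only through the cultures where it is high, so the values that follow describe it and are no support for a rise. The change was 0.995 (SE 0.175, limma adjusted p = 0.0363) with LY2784544, 1.095 (adjusted p = 0.019) with the combination, and 0.09 with GRN163L. Over all cultures with LY2784544 it was 1.0 (SE 0.124, adjusted p = 0.00505). With no filter on low signals, so that all genes entered, CLEC1B was still called with LY2784544 (adjusted p = 0.0369) and with the combination (adjusted p = 0.0213). Near-background probe sets also read higher in these cultures: olfactory receptor genes changed by a median of 0.16 with LY2784544 and 0.15 with the combination, and the highest 5% of them by more than 0.5265 and 0.597. The part of background signal in the change of CLEC1B was not tested.

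CD226 encodes an adhesion receptor shared by platelets and lymphocytes. It read 10.47 and 10.06 in control cultures, 10.72 and 10.88 under LY2784544, 10.48 and 10.54 under GRN163L, and 11.08 and 11.21 under the combination. The combination culture was the highest in each experiment, and every culture with LY2784544 was above every culture without it. The rise with the combination was 0.88 (SE 0.179, limma adjusted p = 0.0383). With LY2784544 alone the difference was 0.535 (adjusted p = 0.23), and over all cultures with LY2784544 CD226 rose by 0.585 (SE 0.127, adjusted p = 0.0402). The control cultures differed from each other by more than the pairs of the other 3 groups did.

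TREML1, an alpha-granule receptor that reaches the platelet surface on activation, differed between the experiments as well as between treatments. Its signals were 8.62, 7.88, 8.55 and 9.23 in experiment 1 for control, LY2784544, GRN163L and the combination, and 9.21, 9.20, 9.11 and 10.54 in experiment 2. In each experiment the combination culture was the highest, but that of experiment 1 was close to the control of experiment 2. The difference between combination and control was 0.97 (limma adjusted p = 0.289, and 0.0344 with the experiment as a block). Against LY2784544 alone it was 1.345 (adjusted p = 0.301, and 0.0368 with the block), with 1.35 in experiment 1 and 1.34 in experiment 2.

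PEAR1, a receptor engaged when platelets touch each other, read 9.39 and 9.20 in control cultures, 9.89 and 9.51 under LY2784544, 9.38 and 9.11 under GRN163L, and 9.70 and 9.41 under the combination. SELP, the P-selectin of alpha-granules, read 10.26 and 10.29, 10.70 and 10.51, 10.34 and 10.25, and 10.63 and 10.53 in the same order. For both genes each culture with LY2784544 was above all cultures without it, and neither was called. ESAM, an adhesion molecule of platelets and endothelial junctions, lay between 9.90 and 10.21 and was highest in the control cultures. CD9, a tetraspanin, lay between 5.88 and 7.0, with its highest values in the GRN163L and combination cultures of experiment 2.

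**Figure D2:**
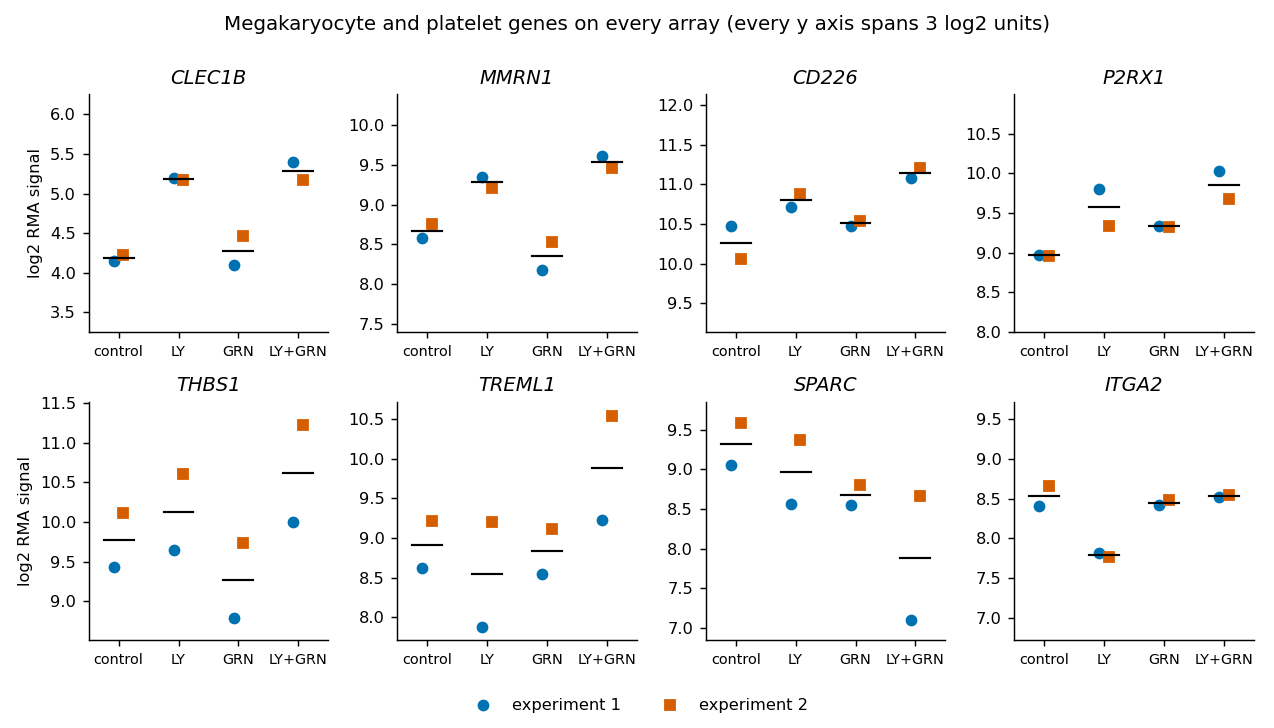
Log2 signal on each of the 8 arrays for CLEC1B, MMRN1, CD226, P2RX1, THBS1, TREML1, SPARC and ITGA2, by treatment. Circles are experiment 1, squares experiment 2 and black bars group means, and every vertical axis spans 3 log2 units. CLEC1B, MMRN1 and CD226 separate the cultures with LY2784544 from those without, while THBS1 and TREML1 also lie higher in experiment 2.

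Of the 4 receptors for soluble agonists, P2RX1 rose. P2RX1 is the ATP-gated cation channel of platelets, and it read 8.97 and 8.96 in control cultures, 9.34 and 9.32 under GRN163L, 9.80 and 9.34 under LY2784544, and 10.03 and 9.68 under the combination. The control culture was the lowest and the combination culture the highest in each experiment. The rise with the combination was 0.89 (SE 0.197, limma adjusted p = 0.0487). That adjusted p was 0.0552 without the filter on low signals and 0.0179 with the block. With LY2784544 alone the difference was 0.605 (adjusted p = 0.221) and with GRN163L alone 0.365.

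The thrombin receptors F2R and F2RL3 were not called in any comparison. F2R lay between 9.90 and 10.30. F2RL3 lay between 7.70 and 8.64, and its control cultures were the lowest and the highest of all. P2RY12, the ADP receptor that clopidogrel blocks, read 3.01 to 3.48 on the 8 arrays and was not tested.

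In the GPIb-IX-V complex, the receptor for von Willebrand factor, no gene was called. GP1BA, its ligand-binding chain, read 10.60 and 10.87 in control cultures, 10.30 and 10.55 under LY2784544, 10.55 and 10.29 under GRN163L, and 10.99 and 11 under the combination. The combination cultures were above all others, with a difference of 0.26 from control and of 0.57 from LY2784544 (limma adjusted p = 0.225 for the latter). GP5, a thrombin-cleaved chain, read 8.30 and 8.34 in control cultures, 9.08 and 8.63 under LY2784544, 8.55 and 8.37 under GRN163L, and 8.74 and 8.55 under the combination. All treated cultures were above both controls, and the difference with LY2784544 was 0.535 (adjusted p = 0.259). GP9, a small chain of the complex, lay between 8.70 and 9.28 with overlapping groups.

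The integrin that binds fibrinogen pairs ITGA2B with ITGB3. ITGA2B read 11.16 and 11.26 in control cultures, 11.46 and 11.19 under LY2784544, 11.22 and 11.14 under GRN163L, and 11.38 and 11.13 under the combination. The groups overlapped, and the change with the combination was 0.045 (limma adjusted p = 0.9). ITGB3 read 11.57 and 11.45, 11.63 and 11.83, 11.75 and 11.64, and 12.07 and 12.20 in the same order. Both combination cultures lay above the other 6. Its change with the combination was 0.625 (adjusted p = 0.0662, and 0.0368 with the experiment as a block).

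Of the collagen receptors, ITGA2, the alpha chain of the collagen integrin, was low with LY2784544 alone. It read 8.41 and 8.66 in control cultures, 7.81 and 7.77 under LY2784544, 8.42 and 8.48 under GRN163L, and 8.52 and 8.55 under the combination. Both cultures with LY2784544 alone were below the other 6, and the combination mean equalled that of the control. The difference with LY2784544 was -0.745 (SE 0.154, limma adjusted p = 0.065, and 0.035 with the block). Between the combination and LY2784544 alone it was 0.745 (adjusted p = 0.0966, and 0.047 with the block). The departure from additivity was 0.83 (SE 0.217, adjusted p = 0.747).

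ITGB1, the beta chain of the same integrin, lay between 9.08 and 9.45. GP6, the signalling collagen receptor, read 7.86 and 8.57 in control cultures, 8.52 and 8.72 under LY2784544, 7.64 and 7.83 under GRN163L, and 7.98 and 8.46 under the combination. CD36, which binds thrombospondin and collagen, read 9.58 and 9.66, 9.56 and 10.73, 8.75 and 9.27, and 8.30 and 10.06 in that order. The change of CD36 with the combination was -1.28 in experiment 1 and 0.40 in experiment 2. Each GRN163L culture was lower than its control for both GP6 and CD36, and neither gene was called.

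**Figure D3:**
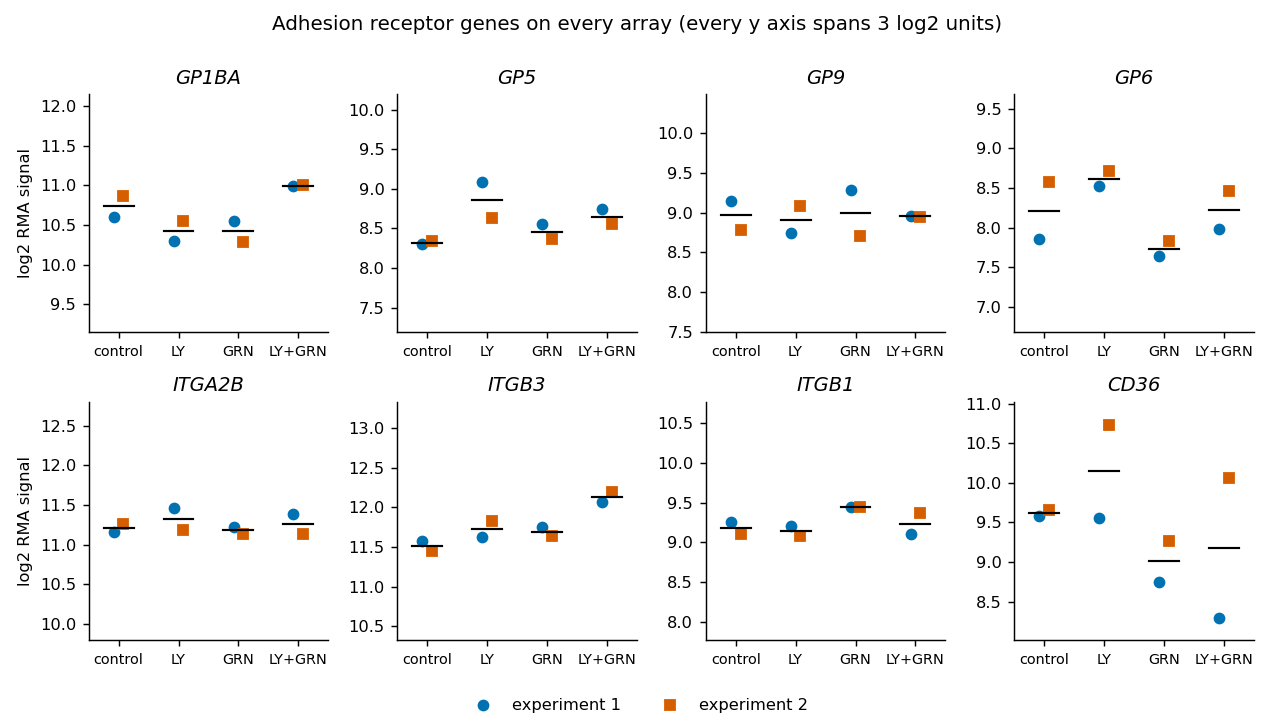
Log2 signal on each of the 8 arrays for the adhesion receptor genes GP1BA, GP5, GP9, GP6, ITGA2B, ITGB3, ITGB1 and CD36, by treatment, with circles for experiment 1, squares for experiment 2 and black bars for group means. Every vertical axis spans 3 log2 units. ITGB3 is highest in the combination cultures at 12.07 and 12.20, and CD36 spreads from 8.30 to 10.06 in that group.

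Of 8 genes for granule and secreted proteins, MMRN1 rose. Multimerin, its product, is stored in alpha-granules with factor V. MMRN1 read 8.58 and 8.75 in control cultures, 9.35 and 9.21 under LY2784544, 8.17 and 8.53 under GRN163L, and 9.61 and 9.46 under the combination. Each GRN163L culture lay below its control, and each combination culture above the LY2784544 culture of its experiment. The rise with the combination was 0.87 against control (SE 0.177, limma adjusted p = 0.0383) and 1.185 against GRN163L (adjusted p = 0.0308). LY2784544 alone gave 0.615 (adjusted p = 0.162), and over the 4 cultures with LY2784544 MMRN1 rose by 0.90 (SE 0.125, adjusted p = 0.00836).

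THBS1, the adhesive alpha-granule protein thrombospondin, read 9.43, 9.65, 8.79 and 10.00 in experiment 1 for control, LY2784544, GRN163L and the combination, and 10.11, 10.60, 9.74 and 11.23 in experiment 2. The order of the 4 treatments was the same in both experiments, with GRN163L lowest and the combination highest. Its difference between combination and control was 0.845 (limma adjusted p = 0.333, and 0.0205 with the block), and against GRN163L it was 1.35 (adjusted p = 0.271, and 0.0106 with the block). In the blocked fit THBS1 was 0.95 higher in experiment 2 than in experiment 1 (adjusted p = 0.0444, where 0.183% of genes were higher).

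SPARC, a secreted matrix protein held in alpha-granules, had the opposite direction. It read 9.05 and 9.59 in control cultures, 8.56 and 9.37 under LY2784544, 8.55 and 8.80 under GRN163L, and 7.10 and 8.66 under the combination. Every treated culture lay below its control. The change with the combination was -1.44 (limma adjusted p = 0.119, and 0.0198 with the block), made of -1.95 in experiment 1 and -0.93 in experiment 2.

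LTBP1, which binds latent TGF-beta, read 10.18 and 9.81 in control cultures, 10.04 and 10.00 under LY2784544, 10.15 and 10.13 under GRN163L, and 10.49 and 10.53 under the combination. The combination cultures were the highest, with a difference of 0.515 from control (limma adjusted p = 0.119). PROS1, the anticoagulant protein S, has 2 probe sets of its own. Their changes were -0.325 and -0.335 with the combination and 0.32 and 0.125 under LY2784544. The second of them turned direction between the experiments. It read 8.07 and 7.48 in control cultures, 7.85 and 7.95 under LY2784544, and 6.88 and 8 under the combination. The gene was not called. CLU, clusterin, lay between 9.67 and 10.49.

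VWF and F13A1 had signals near background and were not tested. VWF, von Willebrand factor, read 3.68 to 4.49 over the arrays, with means of 3.93 in control and 4.385 in combination cultures. F13A1, the transglutaminase chain of factor XIII, read 3.61 and 3.46 in control cultures, 4.02 and 4.34 under LY2784544, 3.48 and 3.48 under GRN163L, and 4.04 and 4.21 under the combination. For F13A1 the 4 cultures with LY2784544 lay above the other 4, and without the filter on low signals that difference was called. The olfactory receptor medians were also higher in those cultures, and the part of background signal in these values was not tested.

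The pair of enzymes that make thromboxane, the prostanoid that recruits further platelets, had like patterns. PTGS1, the platelet cyclooxygenase and target of aspirin, read 10.04 and 9.77 in control cultures, 10.57 and 10.15 under LY2784544, 10.02 and 9.86 under GRN163L, and 10.55 and 10.15 under the combination. TBXAS1, thromboxane synthase, read 7.78 and 7.76, 8.41 and 8.16, 7.69 and 7.88, and 8.44 and 8.06 in the same order. For each enzyme all 4 cultures with LY2784544 were above all 4 without it. That difference was 0.4325 for PTGS1 (limma adjusted p = 0.136, and 0.0334 with the block) and 0.49 for TBXAS1 (adjusted p = 0.0712, and 0.0403 with the block). The combination differed from LY2784544 alone by -0.01 for PTGS1 and by -0.035 for TBXAS1.

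None of the 3 cytoskeletal genes was called. TUBB1, the tubulin of the platelet's marginal band, read 9.79 and 8.78 in control cultures, 9.63 and 9.88 under LY2784544, 9.40 and 9.35 under GRN163L, and 9.50 and 10.03 under the combination. Its change with LY2784544 was -0.16 in experiment 1 and 1.10 in experiment 2. MYL9, the myosin light chain that drives contraction, read 7.84 and 8.26, 7.34 and 7.53, 7.53 and 7.57, and 7.44 and 8.07 in that order. Both controls were above the cultures with either agent alone, and the change was -0.615 with LY2784544 (limma adjusted p = 0.304) and -0.50 with GRN163L.

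The 4 genes of signalling and secretion were not called either. PLEK, the protein kinase C substrate pleckstrin, lay between 11.57 and 11.87, and RAB27B, a GTPase of granule secretion, between 11.05 and 11.43. GUCY1B1, the beta chain of the nitric oxide receptor, lay between 9.34 and 9.94. NRGN, a calmodulin-binding protein whose RNA is carried by platelets, lay between 8.30 and 9.39. For all 4 the cultures with and without LY2784544 overlapped.

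NFE2 and FLI1, the transcription factors of the set, were not called. NFE2, needed for platelet release, read 10.57 and 9.94 in control cultures, 10.50 and 10.49 under LY2784544, 10.35 and 10.04 under GRN163L, and 10.36 and 10.39 under the combination. FLI1, an ETS factor, read 10.80 and 10.44, 10.56 and 10.52, 10.71 and 10.55, and 10.81 and 10.64 in that order. In both genes the control cultures differed from each other by more than any pair of group means did.

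Further genes of the lineage were read from lists of regulators, platelet signalling, granules and cytoskeleton. Of 14 tested regulators (such as GATA1, RUNX1 and GFI1B) 0 were called by limma without the block in the 8 comparisons. MEIS1 had the smallest p among them with the combination, at 0.675 (adjusted p = 0.134, and 0.0321 with the block). Of 24 tested signalling genes, 2 rose with the combination: ADRA2A, an adrenergic receptor of platelets, by 1.08 (adjusted p = 0.0241) and ITGA6, a laminin-binding integrin chain, by 1.41 (adjusted p = 0.037). Of 21 tested granule genes PPBP, PF4 and LYST rose with it, and of 13 cytoskeletal genes MYLK, myosin light chain kinase, rose by 0.755 (adjusted p = 0.0416). Among all genes tested, 0.756% rose with the combination and 2.71% fell. The block added SYK (0.53, adjusted p = 0.0491) and PTGIR (0.965, adjusted p = 0.0121) as higher among the signalling genes, and SLC18A2 (-0.915, adjusted p = 0.0126) as lower among the granule genes. In that fit 2.84% of all genes rose with the combination and 8.15% fell.

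PPBP and PF4 encode chemokines of alpha-granules. PPBP read 6.14 and 5.72 in control cultures, 8.42 and 8.48 under LY2784544, 5.61 and 6.21 under GRN163L, and 8.97 and 9.16 under the combination. It rose by 2.52 (limma adjusted p = 0.00371) with LY2784544 and by 3.135 (adjusted p = 0.00119) with the combination. PF4 rose by 1.915 (adjusted p = 0.0123) with the combination, and its difference with LY2784544 alone was 1.10 (adjusted p = 0.113, and 0.029 with the block). LYST, a regulator of granule size, rose by 0.745 (adjusted p = 0.0449). ANGPT1, a platelet-stored angiopoietin, fell by 0.60 over all cultures with LY2784544 (adjusted p = 0.0406).

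Markers of other lineages were read beside these genes. Of 6 tested mast cell and basophil genes, KIT, CPA3, HPGDS and PRG2 fell with the combination, with log2 changes from -2.185 (HPGDS) to -2.95 (PRG2). Among all genes tested, 2.71% fell with it. The summed log2 signal of the mast cell and basophil list was 12.73 and 12.67 in control cultures and 11.63 and 11.69 under the combination. HDC was called as lower there only with the block (-0.54, adjusted p = 0.0467), where 2.84% of all genes rose and 8.15% fell. Of 8 tested erythroid genes, 0 were called by limma without the block. The means of all 8 were lower with the combination (median change -0.29), but the experiments differed. Every one was lower in experiment 1. In experiment 2 the control and combination cultures read 10.22 and 10.82 for ALAS2, 10.29 and 10.73 for EPB42, and 7.75 and 8.22 for HEMGN. HBE1, TFRC and RHAG were higher there too, and KLF1 and HBZ were lower. HBZ, a globin, read 8.42 and 9.54 in control cultures and 5.20 and 6.25 under the combination, a change of -3.255 (adjusted p = 0.0881, and 0.0399 with the block). Summed erythroid signals were 14.05 and 13.88 in control cultures and 13.49 and 14.02 under the combination. Of 6 tested monocyte and 6 tested endothelial genes 0 were called by limma without the block, and with it VCAN fell (-1.62, adjusted p = 0.0403) and PECAM1, which platelets also carry, rose (0.525, adjusted p = 0.048). The monocyte markers CD14, MPEG1 and CD163 had means under the filter level. The part of these marker genes in the changes of the platelet genes was not tested.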

How the data were processed

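Total RNA of HEL cells, 150 ng a sample, was amplified, labelled and hybridised to 8 Affymetrix arrays, per the labels' protocols. The deposited values are log2 signals made by the authors with RMA in Affymetrix Expression Console, per the submitters' processing notes; RMA draws the arrays to nearly the same distribution and compresses changes of dim probe sets. Not given in the sources used here are the program's version, the genome build and whether all arrays were normalised together. Of 33297 probe sets, 19181 named 1 gene in GEO's platform annotation, 2055 several (not used) and 12061 were unlisted there.

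Genes with a mean under the 30th percentile (4.37) were left out. limma 3.58.1 (R 4.3.3) fitted 4 group means to all 8 arrays, with Benjamini-Hochberg adjustment over 12570 genes and a call at an adjusted p below 0.05. The residual and prior degrees of freedom were 4 and 4.65, and the number of arrays limits the precision. At most 1.9% of the values of any 2 arrays were identical. The experiment number pairs the arrays, per the labels, and over 6 pairs of groups the deviations of same-numbered arrays correlated by 0.103 to 0.674. The fit was also run on simulated data, made with independent arrays, no experiment effect and no shift of whole arrays. That run therefore does not test how the fit handles the pairing or the shifts seen here.

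The members and the gene lists were chosen with earlier results of these data known. Values on every array were to be given for the 3 markers, each called member, each member that changed by at least 0.5, with both experiments alike in sign, under any treatment, and both transcription factors; values of other members were added where they show a pattern across the arrays. Of each further list all called genes, or up to 3 with the smallest p, could be named. Promoter sequences come from RefSeq (GRCh38.p14). Genes without a probe set of their own were not analysed here. The alternatives were other filters, scalings, variance models, the block, array weights, and leaving out arrays.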

Additional observations from a re-analysis of the deposited data

How the results depend on the processing

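Over 21 results for named members, all 397 values under alternatives kept their direction. That outcome was largely set beforehand, because most of these results were picked for like signs in both experiments. Many of the alternatives also leave the size of a change as it is. Among the values, 39 lost and 10 gained a call. Counts of called members changed more, and the cause was not tested. With the experiment as a block, 2 members were called with LY2784544 against control (1 without it), 8 with the combination (4), 2 in the combination against LY2784544 (0), 3 in the combination against GRN163L (1) and 7 over all cultures with LY2784544 (3); the block added or removed no call of a member in the other comparisons. Fitted on the compared groups alone, which leaves fewer samples, the counts were 0 with LY2784544, 1 with the combination and 0 against GRN163L, where 79, 153 and 55 of all genes were called instead of 160, 436 and 68. A filter at the 50th percentile, under which CLEC1B was not tested, gave 0 with LY2784544 (70 of all genes called) and 2 with the combination. A second quantile normalisation gave 0 with LY2784544 (139 of all genes called). A mean-variance trend gave 2 against GRN163L and 5 over all cultures with LY2784544, and setting arrays to the same median gave 2 and 6. The number of all genes called moved too: with LY2784544 it was 185 with the trend and 152 on equal medians, against 160. Counts of members under these settings are therefore no result about the members alone. With the experiment 1 arrays of LY2784544 and the combination left out, the counts were 0 with LY2784544, 1 with the combination (TREML1) and 0 against GRN163L. Leaving out 1 array at a time gave 0 to 1, 0 to 4, 0 to 0, 0 to 1 and 2 to 5 calls, in the order of the first list. A lone array left in a group was taken to vary like the others. Median changes of the 36 genes, on equal medians, were 0.3225 with the combination, 0.1825 for it against LY2784544, 0.425 against GRN163L and 0.0525 over all cultures with GRN163L. With quantile normalisation they were 0.2619 with the combination and 0.3613 against GRN163L. Leaving out 1 array, the medians ran from 0.1475 to 0.2875 with the combination, 0.075 to 0.16 against LY2784544, -0.0825 to 0.035 with GRN163L, 0.0075 to 0.225 with LY2784544, 0.0688 to 0.2387 over all cultures with LY2784544 and 0.0062 to 0.0713 over all with GRN163L. Signals near background limit CLEC1B, VWF, F13A1 and P2RY12, and 2 arrays a group limit every test.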

Other observations

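GP1BB, the remaining chain of the von Willebrand factor receptor, was read by 3 probe sets that are also annotated to SEPTIN5, so their signal cannot be assigned to either gene. The brightest read 6.18 and 6.04 in control cultures of experiments 1 and 2, 6.32 and 6.99 under LY2784544, 6.16 and 6.12 under GRN163L, and 6.47 and 7.16 under the combination. Each culture with LY2784544 was above each without it.

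In all 4 treatments PEAR1, PTGS1, P2RX1 and FLI1 read lower in experiment 2 than in experiment 1. THBS1, TREML1, CD36, SPARC, F2RL3, CLU, CD9, GP6 and MYL9 read higher. Apart from THBS1, none of these passed the test. The share of all genes with such an order was not computed, so these genes are not read as an excess. TREML1 differed by 0.945 between the experiments (limma adjusted p = 0.0671), CD36 by 0.8825, SPARC by 0.79, F2RL3 by 0.5375, CLU by 0.4625, CD9 by 0.445, GP6 by 0.395 and MYL9 by 0.32.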
